A study of Mus musculus with 2 samples.

Results

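The 10 genes described here encode 7 selenoproteins and 3 methionine sulfoxide reductases that carry no selenocysteine. They were chosen by name among the 54532 Ensembl gene identifiers of the count table: the glutathione peroxidase genes Gpx1 and Gpx4, the thioredoxin reductase genes Txnrd1 and Txnrd2, the endoplasmic reticulum (ER) selenoprotein genes Selenof and Selenok, and the methionine sulfoxide reductase genes Msra, Msrb1, Msrb2 and Msrb3. Each of the 10 had a row in the table. They were measured by bulk RNA-seq in splenic CD8+ T cells of mice labelled WT and ND, after 8 h in RPMI 1640 without methionine (1 library) or in complete RPMI 1640 (1 library). The labels name no agent, stimulus or allele other than the medium, and both libraries share tissue, cell type and genotype. The sources used here do not give the strain or age of the mice, the number of animals behind each library, the cell isolation, or which of the named whole-RNA and mRNA library kits was used. With 1 library per medium no difference has a replicate check, no p-value is given, and every interval covers counting error only.

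Selenoproteins contain selenocysteine, an amino acid inserted at a UGA codon that would otherwise end translation, with the help of a stem-loop in the 3′ end of the mRNA and a dedicated transfer RNA. Most of them are oxidoreductases that use the reactive selenol group to reduce peroxides, disulfides or methionine sulfoxide. Methionine sulfoxide reductases return oxidised methionine to methionine, with MsrA acting on the S epimer and the MsrB enzymes on the R epimer, and they draw electrons from thioredoxin and so from the thioredoxin reductases. In mouse T cells, Gpx4 is known for protecting membrane lipids from peroxidation, the thioredoxin system for supplying ribonucleotide reductase during division, and Selenok for calcium signalling.

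The methionine-free library held 19647681 counts and the complete-medium library 14646527, and 13041 genes had a mean of at least 10 counts over both. Levels are in CPM, counts per 1000000 after TMM scaling (a trimmed mean of ratios over genes), and a ratio is that of scaled counts, methionine-free over complete medium. Of the 8 T cell and CD8 marker genes examined, none reached 1.5-fold in either direction, beside 18.0% lower and 15.7% higher among all measured genes. Below that fold, 6 lay lower without methionine and 2 higher, with Cd8a lowest at a ratio of 0.793 (0.772 to 0.816). The 8 markers summed to 1945 CPM without methionine and 2203 CPM in complete medium. The myeloid markers summed to 6.53 CPM without methionine and 5.92 CPM in complete medium, and the dendritic cell markers to 89.6 CPM without methionine and 74.8 CPM in complete medium. Among the dendritic cell markers, Cst3 made 58.5 CPM without methionine and 49.0 CPM in complete medium, H2-Ab1 22.7 CPM without methionine and 22.9 CPM in complete medium, and Flt3 had 149 counts without methionine and 33 in complete medium. The erythroid markers summed to 41 counts without methionine and 22 in complete medium. B cell markers summed to 124 CPM without methionine and 201 CPM in complete medium, nearly all of it Ighm with 120 CPM without methionine and 196 CPM in complete medium. Cd4 had 11 counts without methionine and 9 in complete medium. The neutrophil and NK cell markers had at most 3 counts in a library, and Pf4 and Ppbp of platelets had 0 in both, with 34 counts of Itga2b without methionine and 30 in complete medium. Fewer cells of a type and less RNA per cell cannot be told apart in bulk libraries, and the part of these other cells in the values below was not tested.

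The codon that makes 7 of the 10 genes selenoprotein genes is shown in its reading frame, because its place differs among the 7. Each stretch is the sense strand of the transcript from GENCODE M21 (GRCm38, the assembly of mm10), in DNA letters, with 18 coding bases before the codon and up to 12 coding bases after it. The capitals mark the selenocysteine codon.
Gpx1: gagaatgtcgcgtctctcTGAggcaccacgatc
Gpx4: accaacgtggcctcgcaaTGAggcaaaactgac
Txnrd1: atcctccagtctggctgcTGAggttaa
Txnrd2: cctactgtgactggttgcTGAggctaa
Selenof: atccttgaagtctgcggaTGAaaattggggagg
Selenok: cctccaatggctggtggaTGAggaaggtaa
Msrb1: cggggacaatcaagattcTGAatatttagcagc

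In Gpx1 the codon is number 47 of 201 (chr9:108339451-108339453, plus strand) and in Gpx4 number 73 of 197 (chr10:80054737-80054739, plus strand), both well inside the reading frame. In Txnrd1 it is number 498 of 499 (chr10:82896037-82896039, plus strand) and in Txnrd2 number 526 of 527 (chr16:18477772-18477774, plus strand), so that 1 codon separates it from the stop codon taa seen at the end of both stretches. Selenok has 2 codons between the selenocysteine codon and its stop (chr14:29973440-29973442, plus strand), whereas Msrb1 has 21 (chr17:24740158-24740160, plus strand) and Selenof 69 (chr3:144590645-144590647, plus strand). The stretches of Gpx1 and Gpx4 were identical at 19 of 33 bases, and those of Txnrd1 and Txnrd2 at 16 of 27.

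Most of the 10 genes lay close to each other in the 2 libraries, and they fell on both sides of a ratio of 1. Gpx4 was 2.04-fold lower without methionine and Msrb3 was 5.62-fold higher on few reads, while the other 8 were within 1.5-fold. Selenof, Selenok, Msra and Gpx1 lay on the higher side and Txnrd1, Txnrd2, Msrb1 and Msrb2 on the lower side. Thus 1 of the 10 lay 1.5-fold or more below its complete-medium level, as did 18.0% of all 13041 measured genes, and 1 of the 10 lay as far above it, as did 15.7%. At 2-fold the same genes counted, 1 lower against 9.29% of all genes and 1 higher against 5.80%. The median log2 difference was 0.07 over the 10 genes and 0.04 over all measured genes. All 10 had a mean of at least 10 counts, but Msrb3 reached it only through the methionine-free library. The counting interval of the ratio lay above 1 for 5 genes, Msrb3 among them, below 1 for 3 and held 1 for 2. The share of all measured genes with such intervals is not given here, so these counts do not set the 10 genes apart.

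**Figure D1:**
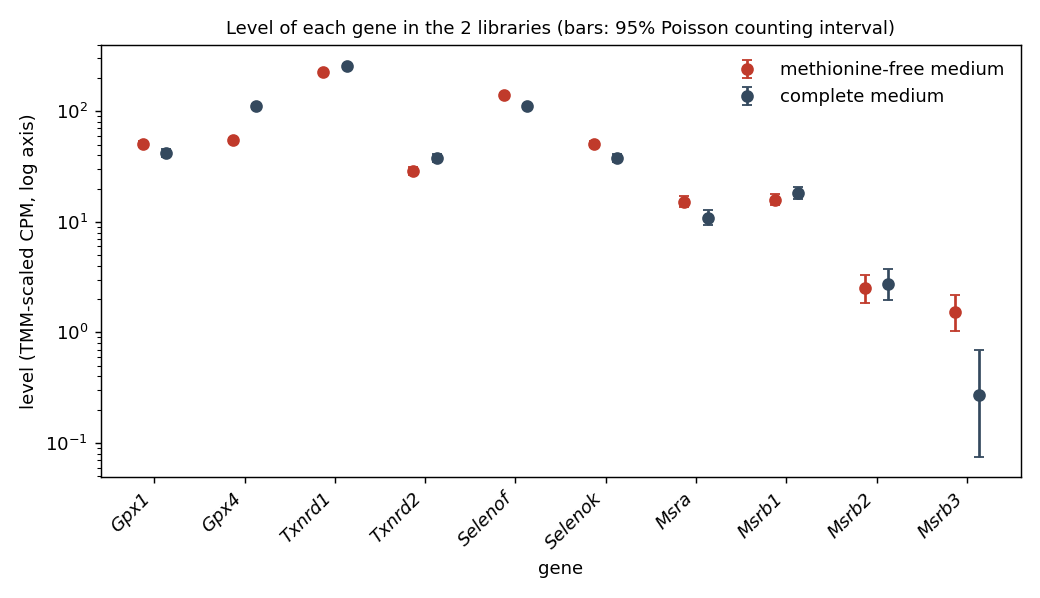
Level of each of the 10 genes, in TMM-scaled CPM on a log axis, in the methionine-free (red) and complete-medium (dark) libraries, 1 library each, with bars for the 95% Poisson counting interval. Gpx4 shows the widest gap among the abundant genes, at 54.4 CPM without methionine and 111 CPM in complete medium, and Msrb3 has the fewest counts in both.

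The 2 peroxidase genes differed from each other. Gpx1 (ENSMUSG00000063856, chromosome 9, 108338903 to 108340343, plus strand) encodes the peroxidase that reduces hydrogen peroxide with glutathione in cytosol and mitochondria. It had 987 counts without methionine and 615 in complete medium, or 50.4 CPM without methionine and 41.9 CPM in complete medium, a ratio of 1.20 (1.09 to 1.33). Gpx1 was therefore slightly higher without methionine by more than counting error, and 66.4% of measured genes had a lower log2 difference. Red blood cell precursors are rich in Gpx1. The erythroid marker Hba-a1 had 26 counts without methionine and 2 in complete medium, and Hbb-bs had 9 and 19. Each of the other erythroid markers had at most 5 counts in a library. The part of such cells in the Gpx1 value was not tested.

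Gpx4 (ENSMUSG00000075706, chromosome 10, 80047166 to 80056439, plus strand) encodes the peroxidase that reduces phospholipid hydroperoxides inside membranes and so holds back ferroptosis, a form of death by lipid peroxidation. It had 1066 counts without methionine and 1629 in complete medium. On the log2 scale the difference was -1.03, and 8.94% of all measured genes lay lower still. Its processed pseudogene Gpx4-ps2, transcribed according to the annotation, matched a Gpx4 transcript at 99.7% over 762 bases and held 189 counts without methionine and 316 in complete medium. Since reads can pass between such copies, the Gpx4 count is uncertain. The pseudogene's own ratio was 0.448 (0.372 to 0.539), and with its counts added Gpx4 was 2.07-fold lower (1.93 to 2.22). The table gives 1 count per gene, so the cytosolic, mitochondrial and nuclear forms of Gpx4 are not separated.

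Within a library the ratio of 2 genes does not depend on scaling. Gpx4 had 1.08 counts for each Gpx1 count without methionine and 2.65 in complete medium, so the balance of the 2 peroxidase transcripts was 2.45-fold lower for Gpx4 (2.16 to 2.79). Gpx4 made up 51.9% of their joint counts without methionine (exact binomial interval 49.7 to 54.1%) and 72.6% in complete medium (70.7 to 74.4%). The summed level of both was 105 CPM without methionine and 153 CPM in complete medium.

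The thioredoxin reductase genes lay a little lower without methionine. Txnrd1 (ENSMUSG00000020250, chromosome 10, 82833951 to 82897712, plus strand), which encodes the cytosolic enzyme, had the most counts of the 10 genes, 4482 without methionine and 3782 in complete medium. After scaling these were 229 CPM without methionine and 258 CPM in complete medium, 1.13-fold lower (1.08 to 1.18). Txnrd2 (ENSMUSG00000075704, chromosome 16, 18426384 to 18479073, plus strand), which encodes the mitochondrial enzyme, had 568 counts without methionine and 552 in complete medium, or 29.0 CPM without methionine and 37.6 CPM in complete medium, and was 1.30-fold lower (1.15 to 1.46). Both differences were beyond counting error and under 1.5-fold. The sources used here do not say whether strand was used in counting, so reads from stretches of a gene that overlap another annotated gene cannot be assigned. Txnrd2 had 0.127 counts per Txnrd1 count without methionine and 0.146 in complete medium, a change of 0.868. The interval of that change, 0.765 to 0.986, lay below 1 by a small margin.

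The ER selenoprotein genes lay on the higher side, and their proportion differed by less than counting error. Selenof (ENSMUSG00000037072, chromosome 3, 144570304 to 144597680, plus strand) encodes an ER protein bound to UGGT, the sensor of misfolded glycoproteins. It had 2770 counts without methionine and 1642 in complete medium, or 141 CPM without methionine and 112 CPM in complete medium, a ratio of 1.26 (1.19 to 1.34). Selenok (ENSMUSG00000042682, chromosome 14, 29968308 to 29975662, plus strand) encodes an ER membrane protein that works with the acyltransferase DHHC6 on the calcium-releasing IP3 receptor. It had 987 counts without methionine and 559 in complete medium, or 50.4 CPM without methionine and 38.1 CPM in complete medium, a ratio of 1.32 (1.19 to 1.47). Selenok had 0.356 counts per Selenof count without methionine and 0.340 in complete medium, and the interval of that change, 0.926 to 1.18, held 1. The 7 annotated copies that match Selenok at 90% or more over at least 250 bases had 0 counts in both libraries.

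The methionine sulfoxide reductases are the members whose substrate comes from methionine itself. As a family they had 688 counts without methionine and 473 in complete medium, 35.1 CPM without methionine and 32.2 CPM in complete medium, and the interval of the ratio, 0.968 to 1.23, held 1. Msra (ENSMUSG00000054733, chromosome 14, 64122625 to 64455903, minus strand), the gene of the enzyme for the S epimer, had 299 counts without methionine and 160 in complete medium. Its level was 15.3 CPM without methionine and 10.9 CPM in complete medium, a ratio of 1.40 (1.15 to 1.71). Msrb1 (ENSMUSG00000075705, chromosome 17, 24736642 to 24742778, plus strand), the selenoprotein of the family, acts in cytosol and nucleus and reverses the oxidation of actin by MICAL enzymes. It had 310 counts without methionine and 269 in complete medium, or 15.8 CPM without methionine and 18.3 CPM in complete medium, and the interval of the ratio, 0.731 to 1.02, held 1. The count of Msrb1 for each count of Msra was 1.04 without methionine and 1.68 in complete medium, 1.62-fold lower (1.25 to 2.10), so the balance of these 2 transcripts differed between the libraries by more than counting error. Msra held 43.5% of the family's counts without methionine (39.7 to 47.3%) and 33.8% in complete medium (29.6 to 38.3%).

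The remaining reductases had few reads. Msrb2 (ENSMUSG00000023094, chromosome 2, 19371440 to 19394976, plus strand), which encodes the mitochondrial enzyme, had 49 counts without methionine and 40 in complete medium, a ratio of 0.918 (0.592 to 1.43). A difference of Msrb2 was not detectable at this depth. Msrb3 (ENSMUSG00000051236, chromosome 10, 120781096 to 120899101, minus strand), which encodes the ER enzyme, had 30 counts without methionine and 4 in complete medium, or 1.53 CPM without methionine and 0.272 CPM in complete medium. Its ratio of 5.62 had a wide interval, 1.98 to 22.0, and 0.629% of measured genes had a higher log2 difference. Msrb3 reached a mean of 10 counts only through the methionine-free library, so a high ratio was built into its place among measured genes. Genes with few counts pass 1.5-fold more often: of the 2582 genes with a mean of 10 to under 50 counts, 26.5% were at least 1.5-fold higher. Gm15910, an annotated antisense gene overlapping Msrb3, had 4 counts without methionine and 7 in complete medium. Msrb3 held 7.71% of the MsrB counts without methionine (5.26 to 10.8%) and 1.28% in complete medium (0.349 to 3.24%), and Msrb1 remained the main MsrB transcript with 79.7% without methionine and 85.9% in complete medium.

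**Figure D2:**
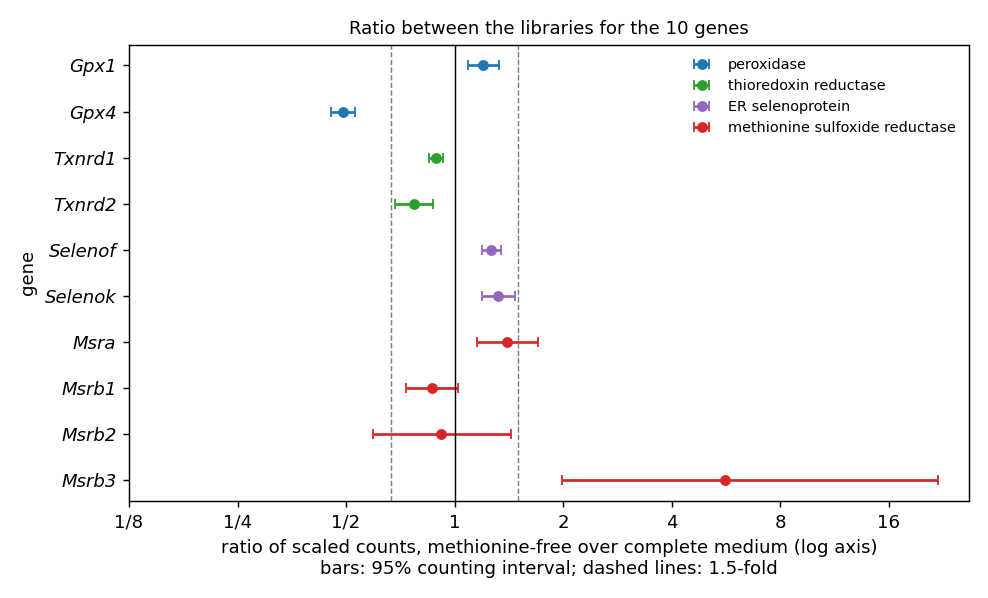
Ratio of scaled counts of each of the 10 genes, methionine-free over complete medium, on a log axis, coloured by the kind of protein, with bars for the 95% counting interval and dashed lines at 1.5-fold. The Gpx4 interval, 0.454 to 0.530, lies wholly below the lower dashed line and the Msrb3 interval, 1.98 to 22.0, wholly above the upper one. Msrb3 reached the count minimum only through the methionine-free library, so a high ratio was built in.

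**Figure D3:**
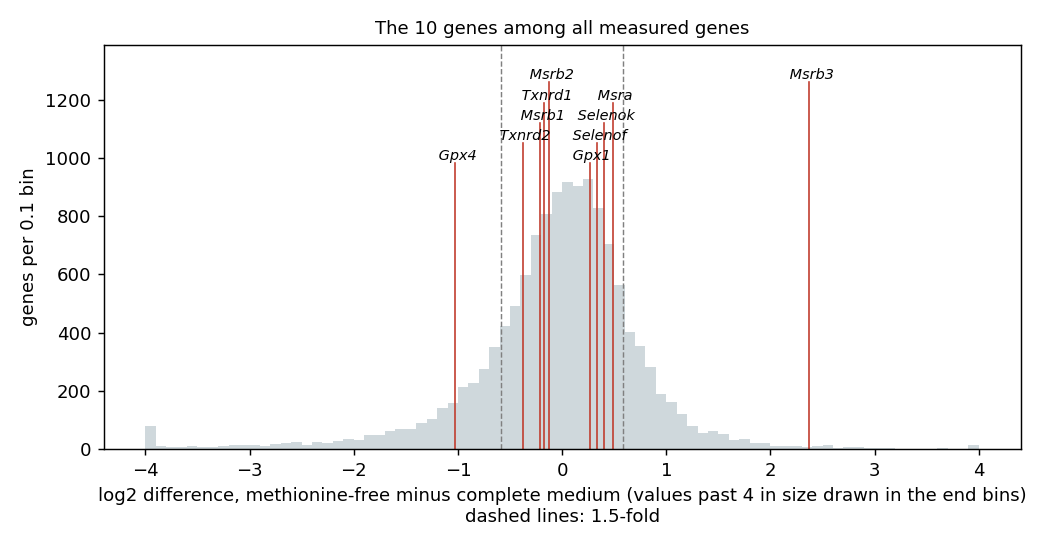
Histogram of the log2 difference, methionine-free minus complete medium, over 13041 measured genes, with a red line for each of the 10 genes and dashed lines at 1.5-fold. The 8 lines between the dashed ones stand in the bulk of all genes, Gpx4 at -1.03 stands in the lower flank and Msrb3 at 2.37 in the upper tail. Msrb3 is among measured genes only through its methionine-free counts.

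To compare genes with each other, levels were divided by the summed exon length of each gene. Without methionine the order in CPM per kilobase was Gpx1 at 35.0, Txnrd1 at 32.3, Gpx4 at 31.6, Selenok at 26.6, Selenof at 24.3, Msrb1 at 12.6, Txnrd2 at 6.59, Msra at 3.55, Msrb2 at 1.82 and Msrb3 at 0.378. Only Txnrd1 and Gpx4 were neighbours in that order whose levels per kilobase did not differ beyond counting error. In complete medium Gpx4 came highest at 64.3 CPM per kilobase, followed by Txnrd1 at 36.3, Gpx1 at 29.1, Selenok at 20.1, Selenof at 19.2, Msrb1 at 14.6, Txnrd2 at 8.54, Msra at 2.54, Msrb2 at 1.98 and Msrb3 at 0.0673. There the neighbours Selenok and Selenof, and Msra and Msrb2, did not differ beyond counting error. Gpx4 and Gpx1 changed places at the top, while the order from Selenok down to Msrb3 was the same in both libraries. Summed exon length counts every annotated isoform, so a gene with long rare exons, such as Txnrd1 with 7086 bases, is placed lower than its main transcript alone would be.

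Mouse has 24 selenoprotein genes in the annotation, of which the 7 described above are part. Of the 17 others, 11 were measured, and their median log2 difference was -0.06. Selenow, which encodes a small selenoprotein with a thioredoxin-like fold, was the highest, with 1014 counts without methionine and 302 in complete medium, or 51.7 CPM without methionine and 20.6 CPM in complete medium, a ratio of 2.52 (2.21 to 2.87). Txnrd3, the gene of a thioredoxin and glutathione reductase known from testis, had 348 counts without methionine and 173 in complete medium and a ratio of 1.51 (1.25 to 1.82), just past 1.5-fold, and under total-count scaling it fell short of 1.5-fold. Selenos, which encodes an ER protein of the p97 degradation complex, lay just short of it at 1.49 (1.33 to 1.67). Gpx3, the gene of the secreted peroxidase, had 26 counts without methionine and 10 in complete medium, and its interval of 0.909 to 4.53 held 1. On the lower side, Selenoh, which encodes a nuclear selenoprotein, had 213 counts without methionine and 263 in complete medium and was 1.65-fold lower (1.37 to 1.98). Selenon, the gene of an ER membrane protein of calcium handling, had 23 counts without methionine and 52 in complete medium and was 3.02-fold lower (1.81 to 5.16).

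So 3 of the 11 other measured selenoprotein genes lay 1.5-fold or more above and 2 lay 1.5-fold or more below their complete-medium level, beside 15.7% and 18.0% of all measured genes. Selenot, the gene of an ER oxidoreductase and the most counted of the others, had 2770 counts without methionine and 1883 in complete medium, 141 CPM without methionine and 128 CPM in complete medium. Of the 6 that were not measured, Gpx2, Dio1, Dio3 and Selenov had 0 counts in both libraries, which at a floor of 3 counts allows up to 0.153 CPM without methionine and 0.204 CPM in complete medium. Dio2, a thyroid hormone deiodinase gene like Dio1 and Dio3, had 0 counts without methionine and 2 in complete medium, and Selenom had 5 without methionine and 0 in complete medium. All 24 selenoprotein genes together summed to 1029 CPM without methionine and 1048 CPM in complete medium.

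**Figure D4:**
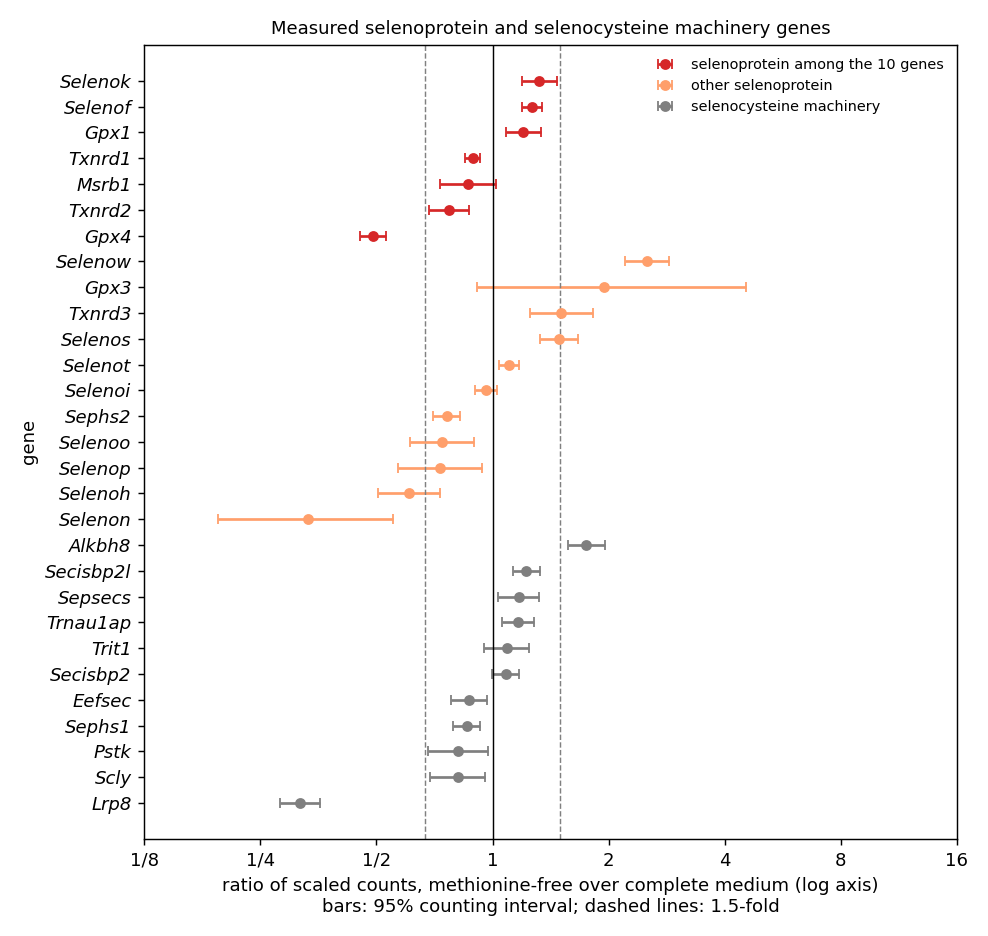
Ratio of scaled counts, methionine-free over complete medium, on a log axis, for the measured selenoprotein genes (red, among the 10 genes; orange, others) and the genes of selenocysteine synthesis, insertion and selenium uptake (grey), with bars for the 95% counting interval and dashed lines at 1.5-fold. Selenow at 2.52, Gpx3 at 1.95 and Alkbh8 at 1.75 lie farthest to the right, the interval of Gpx3 holding 1, and Gpx4, Selenon and Lrp8 lie farthest to the left.

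A UGA codon read as a stop exposes an mRNA to nonsense-mediated decay when it lies more than about 50 bases upstream of the last exon junction, and Gpx1 and Gpx4 are known examples that differ in how strongly selenium supply affects them. By position, the codon lay 105 bases upstream of the last junction in Gpx1, 342 in Gpx4, 83 in Txnrd2 and 78 in Selenof. It lay 34 bases upstream in Msrb1 and 5 in Selenok, and in Txnrd1 it stood in the last exon. Among the 10 measured selenoprotein genes with a codon more than 50 bases upstream, 5 had a positive and 5 a negative log2 difference, with a median of -0.12 and a range of -1.57 (Selenon) to 1.33 (Selenow). The 6 measured genes with no junction downstream had 2 positive and 4 negative values, a median of -0.11 and a range of -0.43 to 0.59. The range was wider in the class with more genes, and about 47.5 to 48.0% of all measured genes had a negative value. Gpx1 and Gpx4, both in the class with distant codons, lay on opposite sides of 0. The part of nonsense-mediated decay in these values was not tested.

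**Figure D5:**
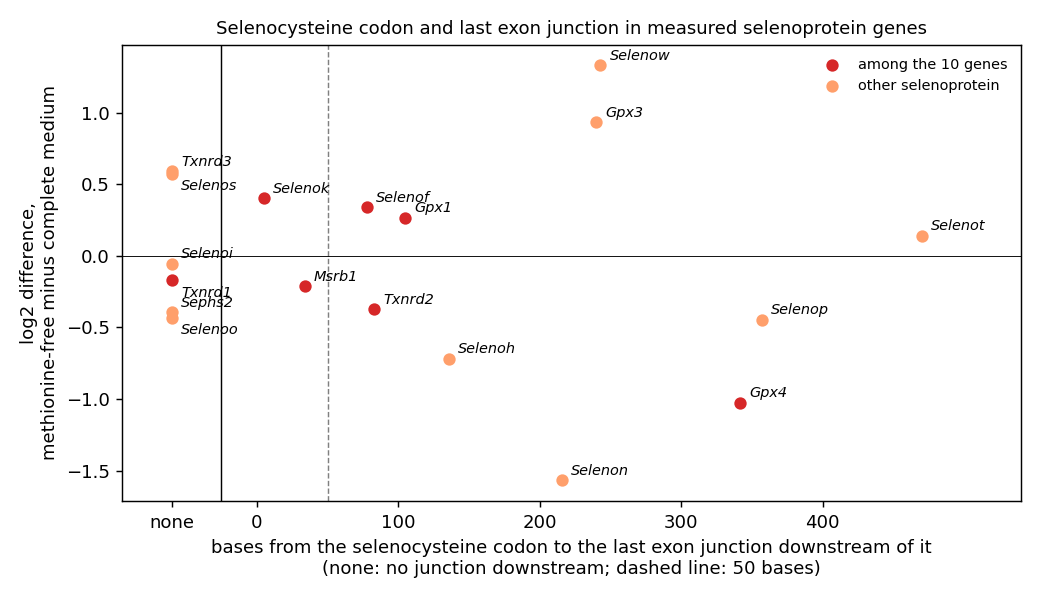
Log2 difference, methionine-free minus complete medium, of the 18 measured selenoprotein genes against the number of bases from the selenocysteine codon to the last exon junction downstream of it, with genes that have no such junction at the left. Gpx1 at 105 bases and Gpx4 at 342 bases lie on opposite sides of 0, and the genes without a junction stay between -0.43 and 0.59.

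Of the 11 genes listed for selenocysteine synthesis, insertion and selenium uptake, all were measured, with a median log2 difference of 0.11. Past 1.5-fold lay 1 gene on the lower side, beside 18.0% of all measured genes, and 1 on the higher side, beside 15.7%. Secisbp2, which encodes the protein that binds the stem-loop of selenoprotein mRNAs and had the highest mean count of the list over both libraries, had 1514 counts without methionine and 1050 in complete medium, 77.3 CPM without methionine and 71.5 CPM in complete medium. Alkbh8, which encodes a methyltransferase that uses S-adenosylmethionine to modify the wobble base of transfer RNAs, that of selenocysteine among them, had 1079 counts without methionine and 463 in complete medium, or 55.1 CPM without methionine and 31.5 CPM in complete medium. Its ratio was 1.75 (1.57 to 1.95). Alkbh8 shares a stretch of 535 bases at 90.3% identity with the noncoding gene 4632415L05Rik, which held 473 counts without methionine and 215 in complete medium, so its value is uncertain. Lrp8, which encodes a receptor that takes up the selenium carrier selenoprotein P, had 407 counts without methionine and 961 in complete medium, 20.8 CPM without methionine and 65.4 CPM in complete medium, and was 3.15-fold lower (2.80 to 3.55).

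Counts of the partners of these enzymes past 1.5-fold stand beside 18.0% lower and 15.7% higher among all measured genes. A list of thioredoxin and peroxiredoxin genes, which also holds Txnip and Srxn1, had 10 measured genes. Of these, 2 lay 1.5-fold or more below their complete-medium level and none as far above it. Their median log2 difference was -0.26. Txn1, the cytosolic thioredoxin gene and the substrate of Txnrd1, had 4191 counts without methionine and 5761 in complete medium, 214 CPM without methionine and 392 CPM in complete medium, a ratio of 0.545 (0.524 to 0.567). Prdx4, the peroxiredoxin gene of the ER, had 257 counts without methionine and 367 in complete medium and a ratio of 0.525 (0.446 to 0.617). Of 6 genes of glutathione supply none was higher and 1 lower by 1.5-fold, with a median of -0.03. Gsr, which encodes the reductase that regenerates glutathione for the peroxidases, had 1213 counts without methionine and 1412 in complete medium, 61.9 CPM without methionine and 96.1 CPM in complete medium, a ratio of 0.644 (0.596 to 0.696). Slc3a2, a subunit of amino acid exchangers, cystine import among them, had the most counts of that list, with 614 CPM without methionine and 498 CPM in complete medium.

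Of 9 measured ER partners of Selenof and Selenok, 2 lay 1.5-fold or more below their complete-medium level and none as far above it, and the median was -0.09. The lower share was near the 18.0% of all measured genes, and 15.7% of these were higher. The list holds the 3 genes of IP3 receptors, the calcium channels on which Selenok acts, and these did not move alike. Itpr3 had 959 counts without methionine and 1918 in complete medium, a ratio of 0.375 (0.346 to 0.405), and Itpr2 had 696 counts without methionine and 1220 in complete medium, a ratio of 0.428 (0.389 to 0.470). Itpr1 had 1413 counts without methionine and 1090 in complete medium, a ratio of 0.972 (0.897 to 1.05). Selenok itself lay at a ratio of 1.32, on the other side of 1. Vcp, the p97 ATPase gene and the most counted of this list, had 641 CPM without methionine and 528 CPM in complete medium, but its processed pseudogene Vcp-rs, 99.1% identical over 2421 bases, held 2057 counts without methionine and 1625 in complete medium, so the value is uncertain.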

How the data were processed

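RNA-seq counts per Ensembl gene were taken as deposited, 1 library per medium. The deposited values are whole-number raw counts, and the submitters' processing notes name the build mm10. The sources used here do not give the aligner, counter or strand setting. Columns were matched to samples by their names. Symbols, coordinates, exon lengths, selenocysteine codons and transcript sequences came from GENCODE M21. TMM factors of edgeR 4.0.16 (R 4.3.3) were 0.997 without methionine and 1.003 in complete medium. Log2 differences used a prior count of 0.5, and 95% intervals of ratios were exact conditional binomial intervals (Python 3.11.15, scipy 1.17.1). Genes were called by size, at 1.5-fold or 2-fold, over the 13041 genes whose mean reached 10 counts, since 1 library per medium allows no test. A count was worth 0.0510 CPM without methionine and 0.0681 CPM in complete medium. Copies were sought with blastn 2.17.0 at 90% identity over at least 250 bases. The calculations were tested on simulated data. The simulated counts had counting error only and no spread between libraries, so the test does not bear on replicate spread. The genes and lists were chosen with earlier results of these data known. Beyond the 10 genes, those named were the genes past 1.5-fold of each list, at most 4 (all for selenoprotein and machinery genes), and its most counted gene. Selenos, Dio2, Selenom and genes at 0 were named after their values were seen, as were overlapping genes, copies and markers of other cells. Some overlapping genes and markers are not reported here.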

Additional observations from a re-analysis of the deposited data

How the results depend on the processing

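The results were recomputed under 8 other settings: DESeq2 size factors (DESeq2 1.42.0), total counts, upper-quartile factors, no minimum count, a mean of at least 100 counts, a prior count of 2, a 2-fold call, and a call that also asks for an interval without 1. The last of these was applied to the 10 genes only. With a mean of at least 100 counts the number of the 10 genes at least 1.5-fold higher was 0 and not 1, because Msrb3 was no longer tested. Of the 22 other selenoprotein and machinery genes measured, 4 were at least 1.5-fold higher and 3 lower. Among all measured genes these shares were 15.7% and 18.0%. The number higher was 3 under total counts, 5 without a count minimum and 3 at the higher minimum. The number lower was 4 without a count minimum and 2 at the higher one. At 2-fold, 1 of the 22 was higher and 2 lower, beside 5.80% and 9.29% of all measured genes. The share of all genes under other scalings and count minimums is not given here, and a count minimum also changes the number of genes tested. All 58 values of single genes among the 10 kept their direction and stayed inside the counting interval of the reported value. This was largely fixed in advance. A count minimum leaves the value of a gene that passes it unchanged, and another scaling shifts all genes by nearly the same amount. The Gpx4 log2 difference ranged from -1.04 to -1.02, and that of Msrb3 from 2.08 to 2.38. Adding the counts of Gpx4-ps2, an alternative chosen after seeing the data, gave -1.05. Other scalings moved the median of all genes by at most 0.01 on the log2 scale. No paired analysis was possible because there was 1 library per medium, and for the same reason no library could be left out. Depth limits Msrb2 and Msrb3, on 49 and 30 counts without methionine and 40 and 4 in complete medium.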

Other observations

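The genes of lipid peroxidation and its control, in which Gpx4 acts, had a negative log2 difference in 7 of 8 measured cases. About 47.5 to 48.0% of all measured genes had a negative one. Of these 8 genes, 3 lay 1.5-fold or more below their complete-medium level and none as far above it. Among all measured genes 18.0% were lower and 15.7% higher by that fold. The median log2 difference of the 8 genes was -0.36. Lpcat3, which encodes an enzyme that loads membrane phospholipids with polyunsaturated fatty acids, had 534 counts without methionine and 840 in complete medium, a ratio of 0.476 (0.427 to 0.532), and it overlaps Emg1 on the opposite strand, with 2916 counts without methionine and 2345 in complete medium. Tfrc, the transferrin receptor gene of iron uptake, was at 529 CPM without methionine and 873 CPM in complete medium, a ratio of 0.606 (0.590 to 0.622). Aifm2, which encodes the ferroptosis suppressor FSP1, had 30 counts without methionine and 44 in complete medium, a ratio of 0.511 (0.310 to 0.831).

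Of the MICAL genes, whose enzymes oxidise methionines of actin that Msrb1 reduces, 2 of 3 were measured and neither was 1.5-fold apart. Among all measured genes 18.0% were lower and 15.7% higher by that fold. Both MICAL genes had an interval of the ratio below 1, that of Mical1 being 0.668 to 0.833, and their median log2 difference was -0.40. Mical1 was at 32.9 CPM without methionine and 44.1 CPM in complete medium, and it overlaps Smpd2 on the opposite strand, with 149 counts without methionine and 126 in complete medium. Of the 4 glutathione peroxidase genes that carry no selenocysteine none was measured, and Gpx7 had 8 counts without methionine and 2 in complete medium while Gpx5, Gpx6 and Gpx8 had 0 in both.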
